A study of Mus musculus with 12 samples.

Results

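RNA was compared between brain endothelial cells of old and young mice for 9 genes of the transcriptional response to blood flow. They are 4 Krüppel-like factors (Klf2, Klf4, Klf6 and Klf10), 3 myocyte enhancer factors (Mef2a, Mef2c and Mef2d) and the kinases Map2k5 and Mapk7, which encode MEK5 and ERK5. They were chosen by gene symbol, and all 9 were found among the 24015 symbols of the deposited table and among the 12777 genes tested. The old group was 6 samples of wild-type C57BL/6 mice aged 19 months, and the young group 6 samples of the same strain and genotype aged 3 months. Each sample pooled cortex and hippocampus of 2 mice, from which endothelial cells, the lining of blood vessels, were sorted by flow cytometry after the tissue was dissociated with a kit. Nothing in the labels says that every pool used its own animals, and the tests below therefore speak only of the scatter among these 12 samples. Values are the authors' normalized counts, which are whole reads divided by 1 factor per sample. In pooled cells, a loss of one kind of vessel and less RNA per cell cannot be told apart.

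Endothelial cells sense the shear stress of flowing blood through surface channels and junction complexes. The kinase cascade from MEKK3 through MEK5 to ERK5 then activates MEF2 proteins bound at the promoters of Klf2 and Klf4. KLF2 and KLF4 in turn induce genes that keep vessels dilated, quiescent and free of clots, such as Nos3 and Thbd, and restrain inflammatory genes such as Vcam1. Class IIa histone deacetylases bind MEF2 proteins and repress their targets.

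The promoter windows of the genes that the results turn on are printed here, because MEF2 proteins bind at the Klf2 promoter. The age differences of the MEF2 genes also differed in sign, though none passed the threshold used below. Each window runs from 250 bases before to 50 bases after the annotated transcript start, 5′ to 3′ on the gene's strand, from RefSeq on GRCm38. The table held 8 of the 9 genes, in 11 windows, with none for Klf10. Capitals mark matches to the MEF2 consensus or to CACCC, the core of the motif bound by KLF proteins, which reads GGGTG on the other strand. Both strands were searched, and no matches of the 2 motifs overlapped in these windows. The windows shown are, in order, Klf2 at chr8:72318812-72319111 on the plus strand, Klf4 at chr4:55532426-55532725 on the minus strand, Mef2a at chr7:67372809-67373108 on the minus strand and, of 3 windows for Mef2c, that at chr13:83503784-83504083 on the plus strand.
Klf2: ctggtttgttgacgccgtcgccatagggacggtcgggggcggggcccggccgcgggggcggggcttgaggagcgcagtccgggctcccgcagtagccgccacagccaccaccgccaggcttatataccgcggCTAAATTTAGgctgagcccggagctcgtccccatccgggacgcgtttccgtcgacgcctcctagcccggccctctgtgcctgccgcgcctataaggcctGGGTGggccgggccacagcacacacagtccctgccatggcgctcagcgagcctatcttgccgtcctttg
Klf4: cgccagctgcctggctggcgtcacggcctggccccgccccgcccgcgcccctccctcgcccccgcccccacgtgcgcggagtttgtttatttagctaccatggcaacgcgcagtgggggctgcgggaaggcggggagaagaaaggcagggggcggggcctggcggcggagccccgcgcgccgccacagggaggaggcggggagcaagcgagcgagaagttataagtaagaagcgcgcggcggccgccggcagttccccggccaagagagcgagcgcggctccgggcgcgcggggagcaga
Mef2a: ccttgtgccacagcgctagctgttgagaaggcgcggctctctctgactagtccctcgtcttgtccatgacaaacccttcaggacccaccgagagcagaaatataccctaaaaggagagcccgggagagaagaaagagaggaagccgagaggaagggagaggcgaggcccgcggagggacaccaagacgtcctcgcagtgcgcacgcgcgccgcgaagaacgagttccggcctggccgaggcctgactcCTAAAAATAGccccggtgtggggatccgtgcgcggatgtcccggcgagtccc
Mef2c: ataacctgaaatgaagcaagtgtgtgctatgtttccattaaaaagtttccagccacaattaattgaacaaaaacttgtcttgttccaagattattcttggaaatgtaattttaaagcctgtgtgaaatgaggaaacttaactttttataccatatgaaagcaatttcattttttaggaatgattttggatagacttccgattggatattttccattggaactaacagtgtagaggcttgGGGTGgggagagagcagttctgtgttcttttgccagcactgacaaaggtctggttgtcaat

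The Klf2 window held 1 match to the MEF2 consensus, CTAAATTTAG, whose first base lies 118 bases before the start. The Mef2a window held another, CTAAAAATAG, whose first base lies 2 bases before the start. No other window of these genes matched the MEF2 consensus, including that of Klf4 and all 3 of Mef2c. Among all 32851 windows of this length in the table, 3.19% held a match. CACCC was found once in the Klf2 window, 19 bases before the start, and 5 times in the Mapk7 window, against 57.5% of all windows with at least 1 match and 3.10% with at least 4. The 3 windows of Mef2c were AT-rich beside the others, with 35.7% GC in the one printed, 47.0% and 48.3% in the other two, 69.3% for Klf2 and 62.3% for Mef2a. Mapk7 has a second window shifted by 5 bases, which holds the same 5 matches. A match is a run of letters and not a measured binding site.

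The depth was 25809499 to 40393814 reads in genes per sample, and the lowest value of any of the 9 genes was 1172 normalized counts. The 12 endothelial markers, which define these cells, summed to between 640590 and 791060 in old and between 766590 and 794690 in young samples. Of them 10 had a log2 fold below 0, where 51.1% of all genes tested did. In limma 1 passed the threshold (Cdh5, lower), where 3.21% of all genes passed as lower. An unadjusted p under 0.05 was found for 4, all lower in old, as for 12.1% of all genes. The median log2 fold of the 12 was -0.21. Their mean log2 level ran from 15.02 to 15.285 in old and from 15.29 to 15.41 in young samples, without overlap. Kdr had a log2 fold of -0.59 and Tek of -0.33 (limma adjusted p = 0.0674 and 0.0746), while Cldn5 had -0.02 and Pecam1 0.03. The 12 astrocyte markers summed to between 12017 and 46317 in old and between 7241 and 38704 in young samples. The 12 mural markers (pericytes and smooth muscle) summed to between 1237 and 11954 in old and between 2746 and 18493 in young. Of the tested markers, 12 of 12 astrocyte genes had a log2 fold above 0 and 11 of 11 mural genes one below 0. In limma 2 of each passed at an adjusted p under 0.05, where 6.94% of all genes did. In edgeR 0 astrocyte genes and 1 mural gene passed, where 6.05% of all genes did. The part of any of these 3 lists in the results below was not tested. In 3 samples (old 9, young 9 and old 7) values fell most steeply with the GC content of the transcript. The fall was 0.18, 0.16 and 0.08 on the log2 scale per 10 points of GC. Values rose most steeply with GC in old 1 and young 1, by 0.13 and 0.11 on that scale. Results without the 3 samples of steepest fall are given for the KLF and MEF2 genes and for some of the other genes.

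Klf2 was the most abundant of the 9 genes and Mapk7 the least. Levels between genes are given per kilobase of exon, as normalized counts divided by exon length. Klf2 averaged 22516 ± 4868 per kilobase in old samples, against 30804 ± 6968 in the young (SD over 6 samples), rank 34 of the 12200 tested genes with a known length. Klf6 came next with 5582 ± 550 in old and 6256 ± 1659 in young, then Klf4 with 3816 ± 1012 in old and 4961 ± 499 in young. Klf10 had 1821 ± 490 in old and 2298 ± 520 in young, and Mef2a 1142 ± 205 in old and 1532 ± 245 in young, per kilobase. Lower still, per kilobase, lay Map2k5 (638 ± 77.7 in old, 655 ± 109 in young), Mef2d (541 ± 165 in old, 702 ± 94.5 in young), Mef2c (519 ± 49.0 in old, 431 ± 54.2 in young) and Mapk7 (378 ± 61.4 in old, 409 ± 32.9 in young). The order was clear at 2 steps, where the 12 values of the higher gene all lay above the 12 of the next: Klf2 over Klf6 and Mef2a over Map2k5. At every other step the ranges overlapped. Klf4 exceeded Klf10 in all 12 samples when paired within samples, while Map2k5 exceeded Mef2d in 5 of 6 old and 2 of 6 young samples. Within the KLF group, Klf2 made up a median of 67.3% of the summed level per kilobase in old and 69.9% in young samples.

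None of the 9 genes passed the threshold for an age difference. A gene counts as past the threshold when its adjusted p in limma, a linear model fitted to all genes on the log2(value + 1) scale with Benjamini-Hochberg adjustment over all of them, is under 0.05. By that rule 0 of 9 passed, where 6.94% of all genes tested did. At an unadjusted p under 0.05, 5 of the 9 were found, against 23.8% of all genes. Of these 4 were lower in old samples, as 12.1% of all genes were, and 1 was higher, as 11.7% were. On the recovered reads edgeR called 6.05% of all genes and 0 of the 9, and DESeq2 called 1, Mef2a, beside 10.2% of all genes. The log2 fold was below 0 for 8 of the 9 genes, with a median of -0.34, where the median of all genes tested was -0.01 and 51.1% lay below 0. In 0 of the 9 did the ages separate completely, as they did in 4.29% of all genes.

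**Figure D1:**
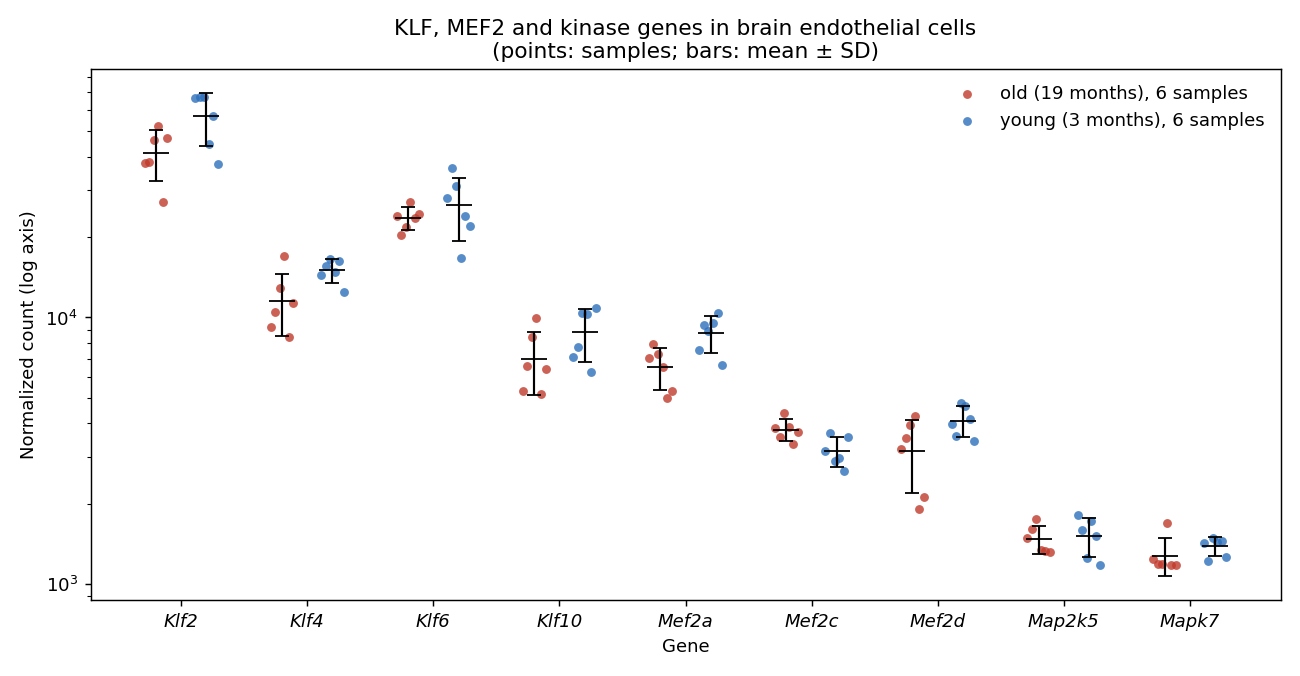
Normalized counts (log axis) of the 9 genes in each sample, with old samples left of young ones and black bars for the mean ± SD of 6 samples. Klf2 in old 7 was 27075, below all young samples, and Mapk7 in old 4 was 1699, apart from the other old samples.

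Klf2, the factor most tightly tied to laminar flow, was 27075 at its lowest, 42367 at the median and 52305 at its highest in old samples. In young samples the lowest, median and highest counts were 37722, 61873 and 67515. All 6 old samples lay below the young median, but only old 7 lay below every young sample, and the lowest young sample was young 9. The log2 fold was -0.45 ± 0.18 (SE), a fold of 0.733 with a 95% interval of 0.562 to 0.955 (limma, adjusted p = 0.141), and the two-sided exact permutation p was 0.0541. Without young 9 Klf2 passed the threshold, at a log2 fold of -0.56 and adjusted p = 0.0477 in limma. Without old 7, old 9 and young 9 the log2 fold was -0.47 (limma adjusted p = 0.07).

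Klf4, which shares many targets with Klf2, ran from 8463 through a median of 10908 to 16949 in old samples. In young samples it ran from 12471 through 15199 to 16622. Of the old samples 4 lay below every young one, while old 4 lay above them all. Its log2 fold was -0.41 ± 0.15 (SE), a fold of 0.752 (95% interval 0.607 to 0.932, limma adjusted p = 0.0984, exact permutation p = 0.0346). Leaving out old 4 gave -0.53 and took Klf4 past the threshold (limma, adjusted p = 0.0159), while leaving out old 7, old 9 and young 9 gave -0.36 (adjusted p = 0.166). The ratio of Klf4 to Klf2 within samples differed between the ages by 0.04 on the log2 scale (exact permutation p = 0.781, adjusted p = 0.938 over 6 ratios).

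Klf6, a factor induced by vessel injury, did not separate the ages. Its lowest, median and highest counts were 20421, 23866 and 27163 in old samples, against 16707, 26067 and 36446 in young. The young values enclosed all of the old ones. Its log2 fold was -0.13 ± 0.16 (SE, limma adjusted p = 0.663), with a 95% interval of the fold of 0.728 to 1.15, and it was -0.19 without old 7, old 9 and young 9 (adjusted p = 0.617). The ratio of Klf6 to Klf2 lay above the young median in 6 of 6 old samples. Its mean was higher in old samples by 0.32 on the log2 scale, without passing (exact permutation p = 0.0801, adjusted p = 0.24 over 6 ratios).

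Klf10, a gene induced early by TGF-beta, had counts of 5181, 6484 and 9963 (lowest, median, highest) in old samples. The same 3 values in young samples were 6267, 9032 and 10891. The groups overlapped widely, with old 7 and old 1 below every young sample. Klf10 had a log2 fold of -0.34 ± 0.18 (SE, limma adjusted p = 0.257, exact permutation p = 0.126). It was -0.16 without old 7, old 9 and young 9 (limma adjusted p = 0.696).

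**Figure D2:**
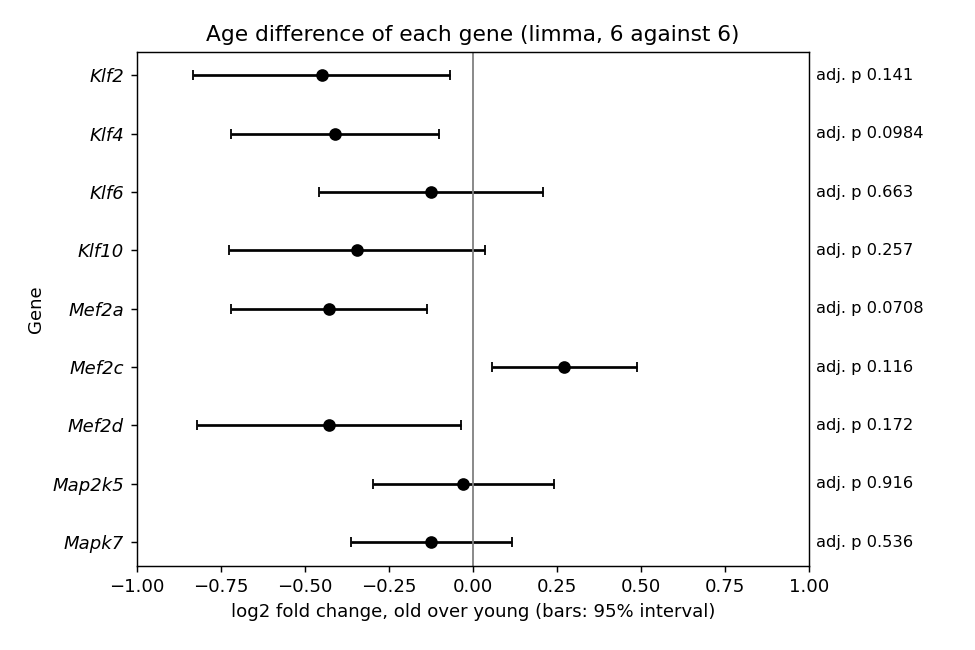
Log2 fold change of old over young (x axis) for each of the 9 genes (y axis), with points for the limma estimate and bars for its 95% interval. Mef2c lies above 0 at 0.27, the other 8 lie below it, and the adjusted p at the right runs from 0.0708 for Mef2a to 0.916 for Map2k5.

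The MEF2 genes divided by the sign of the log2 fold, though none passed the threshold. Mef2a, a MADS-box factor and the most abundant of the family here, ran from 4965 through 6756 to 7970 in old samples. In young samples its lowest, median and highest counts were 6604, 9123 and 10396. All 6 old samples lay below the young median and 3 of them below every young sample, while young 9 and young 1 lay within the old range. This gave a log2 fold of -0.43 ± 0.14 (SE), a fold of 0.743 (95% interval 0.608 to 0.909, limma adjusted p = 0.0708, exact permutation p = 0.0195). Mef2a passed without young 9 (log2 fold -0.50, limma adjusted p = 0.026) and with DESeq2 (adjusted p = 0.0362), not with edgeR (adjusted p = 0.0895). Without old 7, old 9 and young 9 its log2 fold was -0.34 (limma adjusted p = 0.0599).

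Mef2c, the family member required for heart and vessel development, was the 1 gene of the 9 with higher values in old samples. Its lowest, median and highest counts were 3347, 3784 and 4399 in old samples, against 2646, 3061 and 3673 in young. All 6 old samples lay above the young median and 4 of them above every young sample. Its log2 fold was 0.27 ± 0.10 (SE), a fold of 1.21 (95% interval 1.04 to 1.40, limma adjusted p = 0.116, exact permutation p = 0.0195). It stayed short of the threshold in all 28 other settings tried, with adjusted p between 0.0511 and 0.236, and its log2 fold was 0.36 without old 7, old 9 and young 9 (adjusted p = 0.0614). Mef2c is also a gene of microglia and neurons. Of 12 microglial markers 10 were at 0 in some sample. Defining genes of microglia lay far below Mef2c: Cx3cr1 had at most 27.3 counts in old and 45 in young samples, P2ry12 at most 122 in old and 33.0 in young, and Csf1r at most 86.5 in old and 56.1 in young. The 12 neuronal markers summed to between 6118 and 12146 in old and between 2982 and 3665 in young samples, most of it Stmn2, with 5722 to 11173 in old and 2602 to 3349 in young. Of 6 neuronal markers tested, Stmn2 alone passed (log2 fold 1.28, limma adjusted p = 0.000181), where 6.94% of all genes did. The neuronal gene Rbfox3 had at most 20 counts in old and 18.2 in young samples, with 6 of 12 samples at 0. Snap25 had at most 690 in old and 142 in young samples. The part of microglia and neurons in the values of Mef2c was not tested.

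Mef2d, the third family member, split the old samples. It had 1904, 3362 and 4274 counts (lowest, median, highest) in old samples and 3431, 4063 and 4787 in young samples. Old 7 and old 9 stood lowest of all 12, and both are among the 3 samples whose values fell most steeply with GC. Its log2 fold was -0.43 ± 0.18 (SE, limma adjusted p = 0.172), and it was -0.18 without those 3 samples (adjusted p = 0.381).

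Within the MEF2 family the ratio of Mef2c to Mef2a differed between the ages, though it passed in only 5 of 15 other settings. There were 0.446, 0.549, 0.597, 0.606, 0.674 and 0.701 Mef2c reads for each Mef2a read in the old samples, and 0.255, 0.312, 0.326, 0.393, 0.416 and 0.538 in the young ones, in rising order. Of the old samples 5 lay above every young sample, and young 9 stood highest of the young. The mean log2 ratio was -0.76 ± 0.23 for old samples, against -1.46 ± 0.38 for young (SD over 6 samples), a difference of 0.70 (two-sided exact permutation p = 0.00433, adjusted p = 0.026 over 6 ratios). Per kilobase, Mef2c made up a median of 23.2% of the summed family level in old and 16.0% in young samples, and Mef2a 52.1% in old and 57.2% in young. The difference in the ratio stayed between 0.60 and 0.81 whichever sample was left out. Its adjusted p, however, rose to between 0.0519 and 0.0649 on leaving out any 1 sample other than old 2 or young 9. Without old 7, old 9 and young 9 together it passed. Mef2d to Mef2a, by contrast, had the same mean log2 ratio of -1.08 in both ages (exact permutation p = 0.998). Exons of Mef2a, Mef2d and Mapk7 overlap those of a gene on the opposite strand (Lysmd4, 1700113A16Rik and Mfap4). The library kit does not mark strand, and those genes had at most 822, 250 and 34.2 counts in any sample.

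**Figure D3:**
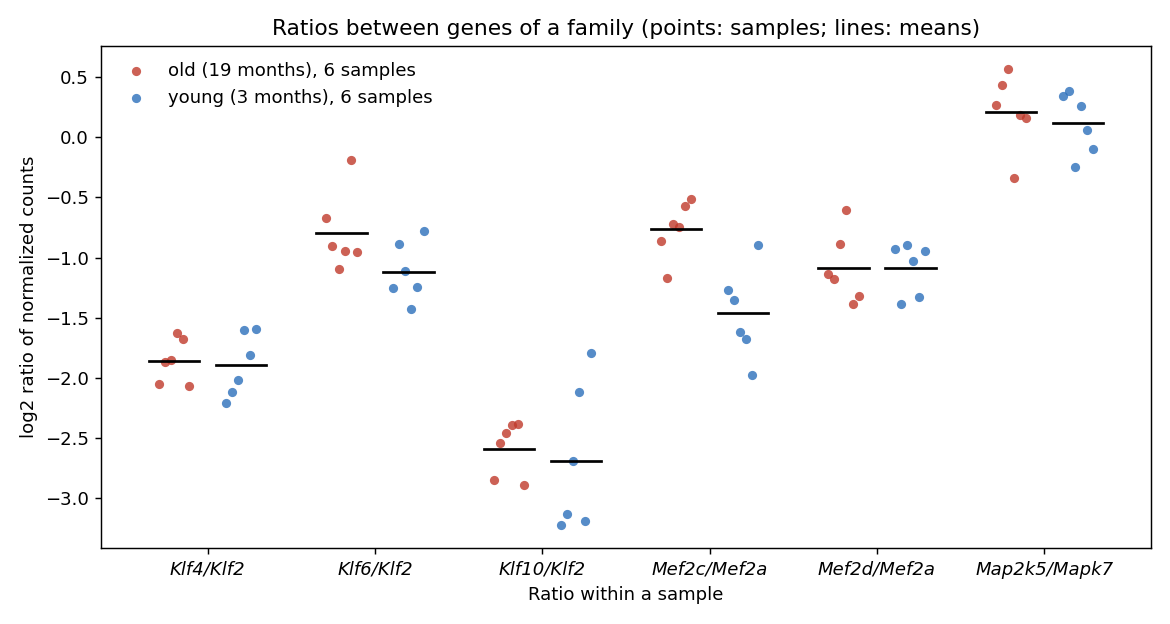
Log2 ratio of normalized counts within each sample (y axis) for 6 pairs of genes (x axis), with old samples left of young ones and black lines for the means. Mef2c/Mef2a averaged -0.76 in old and -1.46 in young samples, while Mef2d/Mef2a averaged -1.08 in both.

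The upstream kinases had the log2 folds nearest to 0, though Mapk7 at -0.12 was level with Klf6 at -0.13. Map2k5 (MEK5), the kinase that activates ERK5, had 1315, 1416 and 1759 counts (lowest, median, highest) in old samples and 1182, 1553 and 1812 in young. Its ranges overlapped almost fully, and the log2 fold of -0.03 ± 0.13 (SE, limma adjusted p = 0.916) has a 95% interval for the fold of 0.814 to 1.18. Mapk7 (ERK5), the kinase that phosphorylates MEF2 proteins, had 1172, 1189 and 1699 counts in old samples and 1219, 1432 and 1493 in young. Of the old samples 4 lay below every young one and old 4 lay above all, giving a log2 fold of -0.12 ± 0.11 (SE, limma adjusted p = 0.536, 95% interval of the fold 0.778 to 1.08).

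Single samples stood low or high across several of the 9 genes. Old 7 was the lowest old sample for 7 of them, old 4 the highest for 6, and young 9 the lowest young sample for 5. Pairs of genes were therefore compared by their deviations from the age means over the 12 samples. Klf2 and Klf4 had the lowest p of the 36 pairs, with r = 0.76 (permutation p = 0.00219, adjusted p = 0.0788 over 36 pairs) and rho = 0.77 (permutation p = 0.00452, adjusted p = 0.0907). Without old 7 and young 9, the 2 samples farthest out in Klf2, r was 0.59. Klf2 with Klf6 had r = 0.61 (permutation p = 0.042, adjusted p = 0.319) and rho = 0.80 (permutation p = 0.00504, adjusted p = 0.0907), and r = 0.84 without the same 2 samples. Mef2a with Mef2d had r = 0.72 (permutation p = 0.0164, adjusted p = 0.294) and rho = 0.59 (permutation p = 0.0675, adjusted p = 0.412), and r = 0.54 without young 9 and old 7. After adjustment 0 of 36 pairs passed by either measure, while 5 had an unadjusted p under 0.05 by Pearson and 3 by Spearman, and 28 of the 36 coefficients were positive. Without old 7, old 9 and young 9 together 18 were positive and 0 passed, and r of Mef2a with Mef2d was -0.098. Mef2c with Mef2a had r = -0.10 (permutation p = 0.771, adjusted p = 0.799) and rho = -0.15 (permutation p = 0.645, adjusted p = 0.856).

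**Figure D4:**
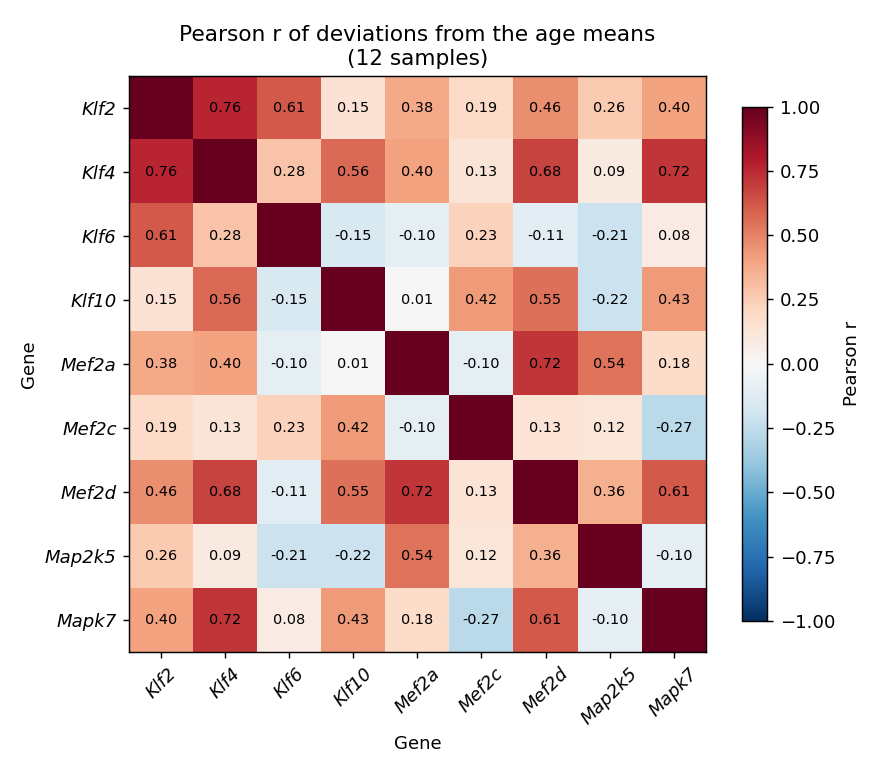
Pearson r between the deviations of each 2 genes from their age means over 12 samples (both axes list the 9 genes, colour gives r). Klf2 with Klf4 stood at 0.76, Mef2a with Mef2d at 0.72 and Mef2c with Mef2a at -0.10.

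The genes whose deviations were most like those of a member were found among 10361 genes with a mean count of at least 100, and these coefficients describe the highest of many. For Klf2 they were Uck2, Dtnb and Stom, with r of 0.93, 0.90 and 0.90 over 12 samples. For Klf4 they were Fars2, B4galt5 and Ipo5 (0.96, 0.92 and 0.92), and for Mef2a they were Jag1, Ambra1 and Zfx (0.94, 0.94 and 0.94). For Mef2c they were Pigs, BC017643 and Fkbp14 (0.87, 0.87 and 0.85), and for Mapk7 S1pr4, Lrrc41 and Slc15a4 (0.87, 0.84 and 0.84). None of the 15 is another of the 9 genes.

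Among 18 genes listed for flow sensing, 2 rose and 2 fell in old samples, where 3.73% of all genes tested rose and 3.21% fell. The median log2 fold of these 18 was -0.23. P2rx4, an ATP-gated calcium channel that responds to shear stress, ran from 1439 through 1723 to 1950 in old and from 1005 through 1167 to 1347 in young samples, with no overlap (log2 fold 0.54, limma adjusted p = 0.00951). Nrp1, a co-receptor for VEGF, ran from 9144 through 11674 to 13904 in old and from 14865 through 16231 to 18953 in young samples, again with no overlap (-0.50, limma adjusted p = 0.0125). Sdc4, a heparan sulfate proteoglycan, rose by 1.24 and the junction cadherin Cdh5 fell by 0.36 on the log2 scale. The call on Sdc4 ended in 10 of 28 other settings, among them without old 2, old 3, old 7, young 3, young 4 or young 5. That on Cdh5 ended in 6 of 28 other settings, among them without young 3, young 4 or young 5, and that on Nrp1 in 1, quantile normalization. The mechanosensitive channel Piezo1 had a log2 fold of -0.53 ± 0.32 (SE, limma adjusted p = 0.325). Its lowest values were those of old 9 (1218) and old 7 (2110), and the log2 fold was -0.12 without old 7, old 9 and young 9 (adjusted p = 0.771).

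Between the sensors and the 2 kinases stand MEKK3 and the cerebral cavernous malformation complex that restrains it. Of 10 genes on that list 0 rose and 1 fell, where 3.73% of all genes tested rose and 3.21% fell. The 10 had a median log2 fold of -0.18. The gene that fell was Rasip1, an endothelial junction protein bound by the HEG1 receptor, with 18794, 22984 and 30329 counts (lowest, median, highest) in old and 28304, 32279 and 37346 in young samples. Of the old samples 5 lay below every young one (log2 fold -0.48, limma adjusted p = 0.0306), though the call ended in 13 of 28 other settings, among them without old 2, old 3, old 7 or old 9 and without young 1, young 3, young 4 or young 5. Map3k3, which encodes MEKK3, had a log2 fold of -0.23 ± 0.12 (SE, adjusted p = 0.244), and Krit1 and Ccm2 of the complex had -0.18 each (adjusted p = 0.387 and 0.383). Map3k3 had -0.10 and Krit1 -0.12 without old 7, old 9 and young 9.

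Of the MEF2 regulators 1 gene rose and 0 fell among the 13 tested, where 3.73% of all genes rose and 3.21% fell. The 13 had a median log2 fold of -0.13. Hdac9, a class IIa deacetylase that binds and represses MEF2 proteins, was 754 at its lowest, 872 at the median and 1150 at its highest in old samples. In young samples the same values were 314, 454 and 527. Every old sample lay above every young one, and old 7 was the highest of all. The log2 fold was 1.03 ± 0.16 (SE, limma adjusted p = 0.00121), and Hdac9 passed in all 28 other settings, at log2 folds between 0.93 and 1.08. The other 3 class IIa genes did not share that direction: Hdac4 had a log2 fold of -0.13, Hdac5 of -0.44 and Hdac7 of -0.26 (limma adjusted p = 0.531, 0.0674 and 0.294). Hdac5 passed in 5 of 28 other settings, DESeq2 and without young 9 among them, and Hdac7 had -0.10 without old 7, old 9 and young 9. Of the 3 protein kinase D genes, whose products export these deacetylases from the nucleus, Prkd1 had a log2 fold of 0.15, Prkd2 of -0.50 and Prkd3 of -0.34 (limma adjusted p = 0.687, 0.0726 and 0.0862).

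Among the other KLF genes 0 of 9 tested passed in limma or edgeR, where 6.94% and 6.05% of all genes did. DESeq2 called 1 of 11, beside 10.2% of all genes. In limma 4 of the 9 had an unadjusted p under 0.05, where 23.8% of all genes did. The median log2 fold of the 9 was -0.18. Klf3, a repressor of the family, came nearest with 4786, 5836 and 8393 counts (lowest, median, highest) in old and 6071, 8461 and 9678 in young samples (log2 fold -0.45, limma adjusted p = 0.0601). It passed in 7 of 28 other settings, among them without old 4 and without young 9. Klf15 lay furthest above 0, at 1.5 ± 0.51 (SE, adjusted p = 0.089), and passed in 4 of 28 other settings, among them without young 9.

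Genes that KLF2 or KLF4 induce moved in both directions. Of 17 tested, 3 rose and 1 fell in limma and in edgeR, with a median log2 fold of -0.23, where 3.73% of all genes rose and 3.21% fell in limma. DESeq2 called 3 higher and 3 lower of 18, beside 10.2% of all genes in either direction. Thbd, the anticoagulant thrombomodulin, had 10453, 15378 and 16908 counts (lowest, median, highest) in old and 21403, 26682 and 36005 in young samples, without overlap (log2 fold -0.94, limma adjusted p = 0.00207). Cyp1b1, a shear-induced cytochrome, rose without overlap from low levels, with 332 to 757 counts in old and 3.46 to 122 in young samples (log2 fold 3.55, limma adjusted p = 0.00248). The lowest young value was that of young 3, without which the log2 fold was 2.90. Ass1, which regenerates arginine for nitric oxide synthesis, ran from 627 to 869 in old and from 443 to 560 in young samples (0.58, adjusted p = 0.0088), and the ligand Bmp6 rose by 0.95. The call on Bmp6 ended in 9 of 28 other settings, among them without old 1, old 2, old 7, young 2, young 4 or young 5. Nos3, the nitric oxide synthase of endothelium, had a log2 fold of -0.23 ± 0.11 (SE, adjusted p = 0.226). Of 9 tested genes that these factors repress, 1 rose and 1 fell, with a median of -0.04. Edn1, the constrictor endothelin, had 7899, 11138 and 14748 counts (lowest, median, highest) in old and 6501, 6836 and 8408 in young samples, with 5 old samples above every young one (0.64, adjusted p = 0.0102). Icam1, a leukocyte adhesion molecule, fell by 0.87 on the log2 scale (adjusted p = 0.0199). That call ended in 5 of 28 other settings, among them without young 4 or young 5.

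**Figure D5:**
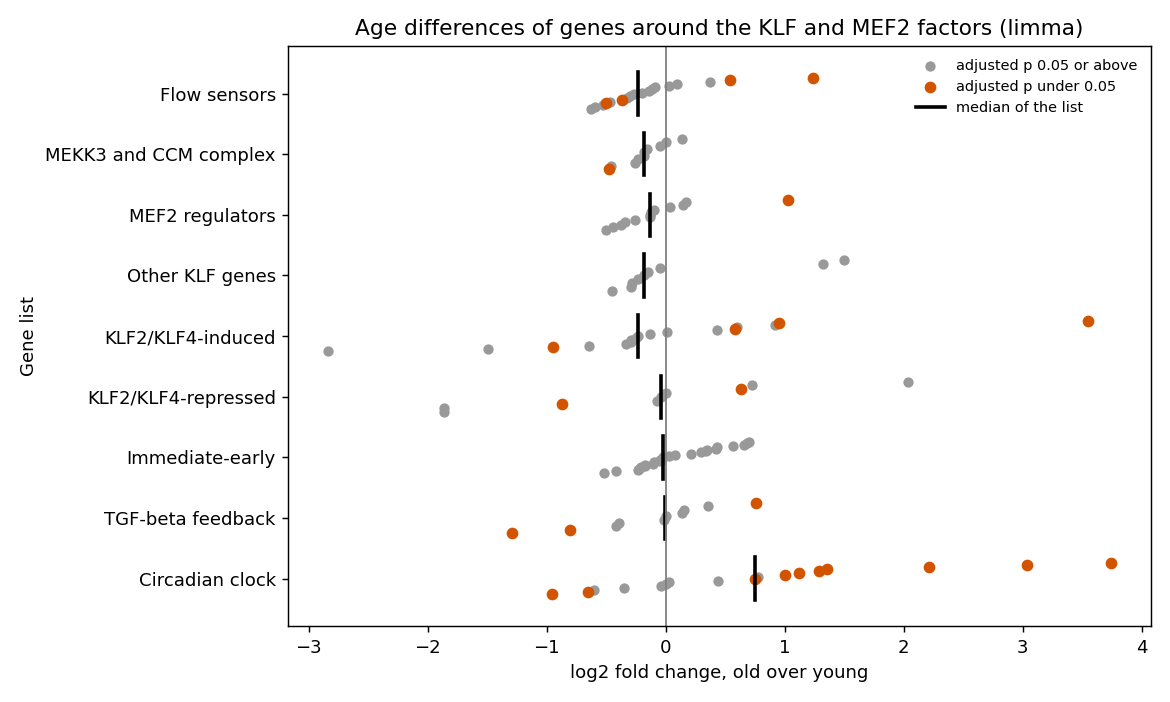
Log2 fold change of old over young (x axis) for each tested gene of 9 lists around the KLF and MEF2 factors (y axis), with orange points for an adjusted p under 0.05 and black lines for list medians. The list medians lie between -0.23 and 0.00 except that of the clock list at 0.75, and Hdac9 stands alone among MEF2 regulators at 1.03.

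Tissue dissociation induces immediate-early genes, and KLF genes with them. Of 25 immediate-early genes 0 passed in limma, edgeR or DESeq2, where 6.94%, 6.05% and 10.2% of all genes did. At an unadjusted p under 0.05 there were 2 of the 25 in each, where limma gave 23.8% of all genes. The median log2 fold of the 25 was -0.02. Their mean log2 level ran from 10.5 through a median of 10.8 to 11.2 in old and from 10.1 through 10.95 to 11.1 in young samples (difference 0.10, exact permutation p = 0.613). Ier3 came nearest, at a log2 fold of 0.66 (limma adjusted p = 0.0994). With that mean level as a covariate Klf2 had an adjusted p of 0.0712 and Klf4 of 0.108 in limma.

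TGF-beta feedback genes, set beside Klf10, gave 1 rise and 2 falls among 10, where 3.73% of all genes rose and 3.21% fell. The median log2 fold of the 10 was 0.00. Pmepa1, a feedback inhibitor of TGF-beta signalling, ran from 1664 through 1864 to 2356 in old and from 2942 through 3358 to 3626 in young samples, without overlap (-0.80, limma adjusted p = 0.000304). The co-repressor Ski fell by 1.29 and the inhibitor of DNA binding Id2 rose by 0.76 on the log2 scale (adjusted p = 0.0241 and 0.0366). The call on Ski ended in 6 of 28 other settings, among them without old 2, young 3, young 4 or young 5. That on Id2 ended in 13, among them without old 2, old 3, old 7 or old 9 and without young 2, young 3, young 4 or young 5, and edgeR called 0 higher and 1 lower of the 10. Klf10 itself follows the circadian clock in several tissues. Among clock genes 8 of 17 rose and 2 fell, where 3.73% of all genes rose and 3.21% fell. The median log2 fold of the 17 was 0.75. Nr1d1, a clock repressor, had 7365, 9905 and 14159 counts (lowest, median, highest) in old and 1904, 2109 and 2604 in young samples (2.22, limma adjusted p = 3.13e-07). Dbp, a clock output factor, ran from 497 to 935 in old and from 56.9 to 135 in young samples (3.03, adjusted p = 3.90e-06), and Per3 rose by 1.36. The labels used here give no time of day of collection, and the part of the clock genes in the values of the 9 genes was not tested.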

How the data were processed

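RNA-seq values of 12 samples, 6 old and 6 young, came from 1 table of the deposited signal per gene, which its name calls normalized counts. Per the labels' protocols, the SMART-seq v4 kit gave the cDNA and Nextera XT the libraries. Tools listed per the submitters' processing notes are STAR 2.4.2a and Cuffdiff 2.2.1, beside R 3.2.2 and FastQC 0.11.2, and the build mm9, with no order or role stated. Which tool and gene models gave the counts is not given in the sources used here. In the deposited signal 100% of values are whole multiples (within 0.001) of the smallest value above 0 of their column, so whole reads were recovered by dividing by it. Reads carry no molecular identifiers.

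Genes with a mean of at least 10 were fitted on log2(value + 1) with limma 3.58.1 in R 4.3.3 (age as the only term, variance trend), with Benjamini-Hochberg adjustment over 12777 genes and a threshold of 0.05. On recovered reads, edgeR 4.0.16 (quasi-likelihood, 761 genes called) and DESeq2 1.42.0 were alternatives. The fit was tested on simulated data. Exact permutation tests were two-sided over the 924 labellings of 12 samples (smallest p 0.00216), and pairs used 100000 shuffles within age. Exon lengths and GC came from GENCODE M21, and promoters from RefSeq (both GRCm38, not the authors' build). Protein sequences were not used here.

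The genes, lists and tests were chosen with earlier results of these data known. Named genes were the 9, up to 3 genes past the threshold with the smallest p per pathway list (or the 1 nearest), and the 3 most alike for 5 of the 9. Other genes named (Piezo1, Sdc4, Map3k3, Krit1, Ccm2, Hdac4, Hdac5, Hdac7, Kdr, Tek, Cldn5, Pecam1, Prkd1, Prkd2, Prkd3, Klf15, Bmp6 and Nos3) were chosen after their values were seen. The marker genes Cx3cr1, P2ry12, Csf1r, Stmn2, Rbfox3 and Snap25 were likewise named outside that rule. Replicates of an age all differed by more than counting noise (lowest chi-square per degree of freedom 34.0). The other settings were the pseudocount, filter, scaling, variance model, sample weights, test, title number as block, an immediate-early covariate, GC and left-out samples.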

Additional observations from a re-analysis of the deposited data

Results flagged for a closer look

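Mapk7 in old 4, at 1699 normalized counts, stood far from the other 5 old samples, which ran from 1172 to 1240. Its gap to the nearest of them was 0.871 of the whole range, above Dixon's critical value of 0.625 for 6 samples. Of 18 sets of 6 values examined (9 genes in 2 ages) this was the 1 flagged, and chance flags about 1 in 20. Without old 4 the log2 fold of Mapk7 was -0.21 (limma, adjusted p = 0.2). Old 4 was also the highest old sample for Klf2, Klf4, Klf6, Klf10 and Mef2d.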

How the results depend on the processing

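Of 28 other settings, 1 took Klf2 past the threshold, 2 Klf4 and 4 Mef2a. These were Klf4 with sample weights (log2 fold -0.43) and Mef2a with sample weights (-0.37), DESeq2 (-0.42) and the GC slope as covariate (-0.41, added after seeing the data), besides left-out samples. Leave-one-out log2 folds ran from -0.56 to -0.33 for Klf2, -0.53 to -0.33 for Klf4, -0.50 to -0.35 for Mef2a and -0.096 to 0.027 for Map2k5, which also changed sign to 0.0025 over the 10 samples that share a title number, with and without the block. Leave-one-out differences ran from 0.60 to 0.81 for Mef2c/Mef2a, -0.026 to 0.097 for Klf4/Klf2, -0.0016 to 0.285 for Klf10/Klf2 and -0.096 to 0.060 for Mef2d/Mef2a.

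The 887 genes past the threshold (477 higher, 410 lower) became 1380 (765 higher) with sample weights, 1408 (747 and 661) with DESeq2, 553 to 1225 (310 to 696 and 243 to 529) with 1 sample left out (553, 310 and 243 without young 4), and 629 lower with the GC slope. With the title number as a replicate block 612 passed (301 higher), and 473 (260 and 213) in the same 10 samples without it. Same-numbered samples did not deviate together (r from -0.16 to 0.10), and the block called none of the 9 genes.

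Without old 7, old 9 and young 9, r turned negative for Klf2 with Mef2a (-0.55) and Map2k5 (-0.34), Klf4 with Mef2a (-0.19) and Map2k5 (-0.41), Klf10 with Mef2a (-0.21), Mef2a with Mef2d (-0.098) and Mapk7 (-0.41), Mef2a and Map2k5 (-0.0116), and Mef2d with Mef2c (-0.28) and Map2k5 (-0.34). Apart from r, the age log2 folds of Dtnb and Lrrc41, each 0.05 in the main fit, also changed sign. That of Dtnb did so under quantile normalization (-0.0035) and, like that of Lrrc41, without old 4 or young 9. With 1 sample left out the log2 fold of Dtnb ran from -0.028 to 0.151 and that of Lrrc41 from -0.024 to 0.092. The cause of these changes was not tested.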
